A study of Sus scrofa with 6 samples.

Results

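Cytokines and chemokines are the secreted signals with which epithelial and immune cells call each other, and their receptors, the Toll-like receptors and the NF-kB proteins form the input side of the same circuit. A Toll-like receptor that meets a microbial product, or a receptor of IL-1 or TNF that meets its ligand, frees NF-kB from its inhibitors of the IkB family. NF-kB then switches on genes of chemokines, cytokines and its own inhibitors. Enterocytes take part in this circuit chiefly by releasing neutrophil-attracting chemokines and by keeping their response to bacterial lipopolysaccharide low.

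The genes described here are those of IPEC-1 cells whose symbol in the array annotation is an interleukin or interleukin receptor (IL and a digit), a chemokine or chemokine receptor (CCL, CCR, CXCL or CXCR and a digit, with 1 gene left out), TNF, a member of the TNFSF or TNFRSF families, a Toll-like receptor, an NFKB gene or a numbered colony-stimulating factor. The rule found 78 of 6765 named genes, on 95 probe sets. IPEC-1 is a non-transformed epithelial line from the small intestine of newborn piglets, and 3 arrays of air-liquid interface (ALI) cultures, whose apical side carries only a thin film of medium, were compared with 3 arrays of submerged (SMC) cultures under a full column of medium. The ALI arrays come from passages P109, P111 and P113, and so do the SMC arrays. Replicates are therefore passages of a single line, from at least 3 independent experiments by the methods. P-values of fits without the passage measure the spread between these passages. Those with the passage as a block measure how far the differences within passages vary. According to the methods, all cultures had been brought to serum-free medium with insulin, transferrin, selenium and epidermal growth factor, and no cytokine or microbial stimulus is named for either culture. The free-text description in the labels names liver, which neither the other labels nor the methods do.

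The values are log2 signals of GeneChip Porcine Genome Arrays. The 25% quantile of all 23999 probe sets lay between 4.515 and 4.612 on the 6 arrays and the median between 6.332 and 6.383. Differences are ALI minus SMC on this scale. No detection calls were used, so a signal in the lowest 25% is not shown to be above background. A probe set's signal also depends on its probes, so signals of different genes do not rank their RNA amounts. Epithelial markers had high signals in both cultures. The adhesion molecules EPCAM and CDH1 and the keratins KRT8, KRT18 and KRT19 had means from 12.2 to 13.7 in both cultures, and of 8 measured epithelial markers only FABP2, a fatty acid binding protein of mature enterocytes, lay in the lowest 25% on all arrays. KRT18 and VIL1 had the largest differences of this list, at log2 differences of -0.19 and -0.45 (adjusted p = 0.745 and 0.332 from limma). None of the 8 passed the test, where 2.53% of all genes did. An unadjusted p under 0.05 was found for 1 of them (16% of all genes). Of 21 measured markers of immune cells, 8 lay above the lowest 25% on all 6 arrays. AIF1, whose values are given below, was among the 8 and lay above the median of every array. PTPRC, the pan-leukocyte phosphatase CD45, stayed between 3.39 and 3.56 in ALI and between 3.45 and 3.74 in SMC cells, in the lowest 25% throughout. The mean signal of this list was 5.06 to 5.15 on the ALI arrays and 5.09 to 5.13 on the SMC arrays.

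Of the 78 genes, 47 lay above the lowest 25% on all 6 arrays, 23 on none and 8 on some. Over all named genes the share above it on all arrays was 86.6%, against 60.3% of this set. By class, all 5 TNF receptors and all 4 TNF ligands were above it on every array, as were 8 of 12 interleukin receptors, 13 of 19 chemokines, 9 of 19 interleukins, 3 of 4 NFKB genes, 2 of 7 chemokine receptors, 2 of 6 Toll-like receptors and 1 of 2 colony-stimulating factors. The 23 genes in the lowest 25% on every array were the interleukins IL2, IL4, IL7, IL10, IL12A, IL12B, IL16, IL17A and IL21, the common gamma chain IL2RG, the chemokines CCL19, CCL24, CCL28 and CXCL9, the chemokine receptors CCR1, CCR3, CXCR4 and CXCR6, the Toll-like receptors TLR1, TLR2, TLR8 and TLR9, and NFKB1. For these genes neither presence nor absence of RNA can be read from the signal.

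Just above the limit were TNFRSF17, the monocyte attractant CCL2, IL5 and the IL-13 receptor chain IL13RA1, whose lowest signals on any array were 4.54, 4.70, 4.63 and 4.63. IL15 and IL7R were above it on 3 arrays each, IL6R on 4, CXCL14 on 3, CCR9 on 5, and CXCL12, CSF2 and IL18R1 on 1. CCL19 and IL16 came closest from below, each with a highest signal of 4.53, and CCL19 measured 4.46, 4.53 and 4.50 in ALI and 4.35, 4.21 and 4.34 in SMC cells.

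**Figure D1:**
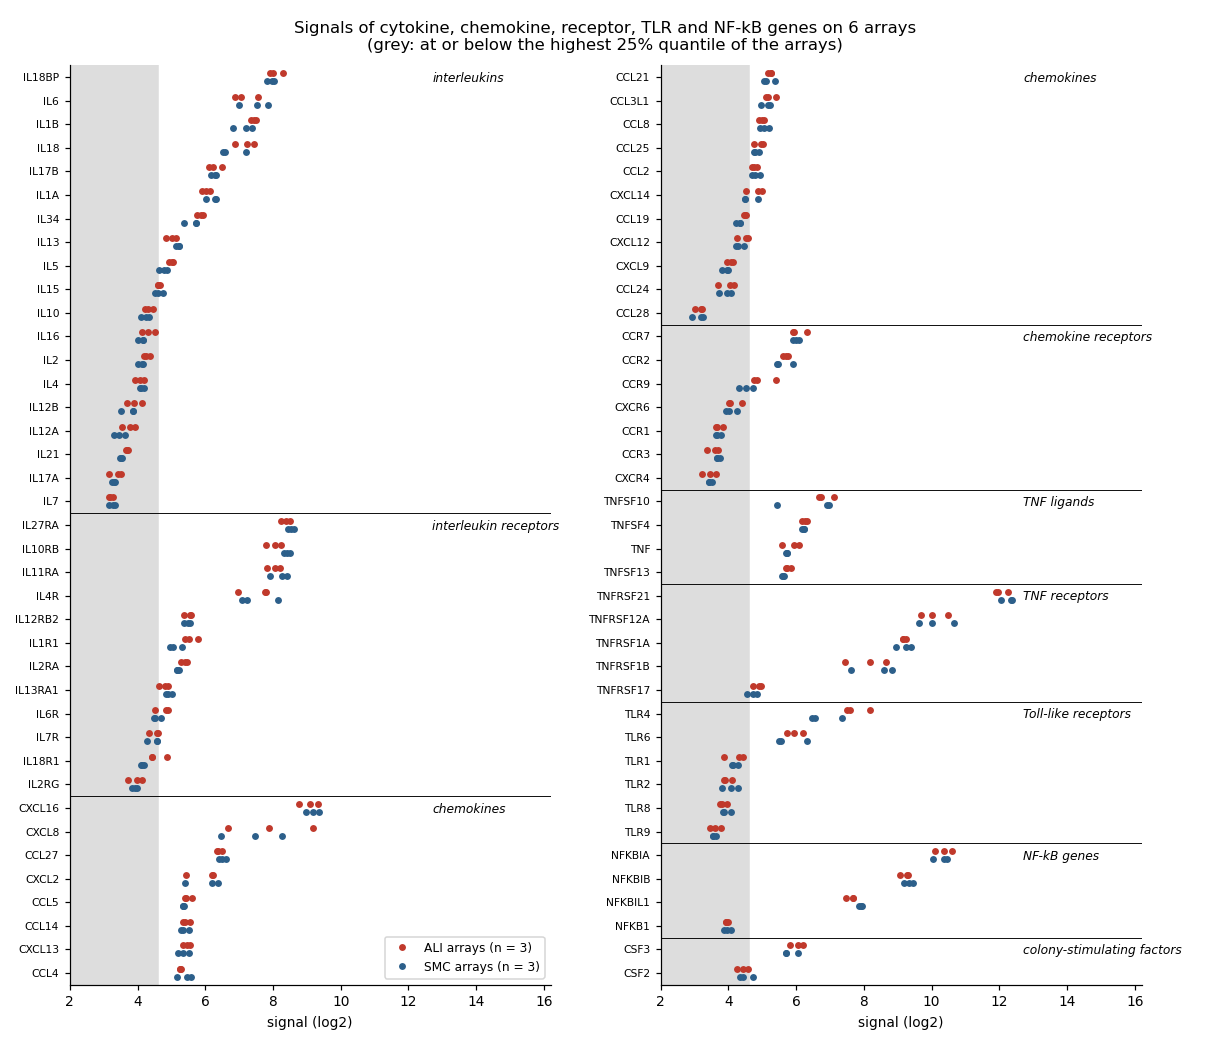
Log2 signal of each of the 78 genes on the 3 ALI arrays (red, upper points) and the 3 SMC arrays (blue, lower points), grouped by class and sorted by mean within it. The grey band ends at 4.612, the highest 25% quantile of the arrays, and red and blue points are fully apart for 12 genes with red to the right and for 3 with red to the left.

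No gene of the set passed the test between ALI and SMC cells. Under limma with Benjamini-Hochberg adjustment over all probe sets, 0 of the 78 genes were called at an adjusted p under 0.05, while 1.02% of all named genes were called higher and 1.51% lower (2.53% together, and 1.9% of all probe sets). At an unadjusted p under 0.05 the count was 6 of 78, or 7.69%, against 16% of all genes, with 4 of the 6 higher (7.1% of all genes) and 2 lower (8.91%). The t-test named in the methods gave 9 genes at an unadjusted p under 0.05 (11.5%, against 14.2% of all genes). After adjustment this t-test called 0 of the 78 genes and 0 of all genes. The paper, in contrast, reports significantly regulated genes in both directions. Why the outcomes differ was not tested. With the passage as a block, 1 of the 78 was called, TLR4, where 6% of all genes were called in either direction, and 8 had an unadjusted p under 0.05 (21.2% of all genes). The log2 differences of the 78 genes ran from -0.38 for IL10RB to 0.98 for TLR4. Their median was 0.05, against 0.01 over all genes, and TLR4 alone reached a 1.5-fold difference (1.28% of the set, 5.04% of all genes).

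The intervals were about as wide as over all genes. For 62 of the 78 genes, and for 34 of the 47 above the lowest 25%, the 95% interval of the difference lay within 1.5-fold in either direction. Over all genes it did for 5147 of 6765. In the lowest 25% a narrow interval does not show that the RNA was unchanged. It reached beyond 2-fold for 4 genes, namely TLR4, CXCL8, TNFSF10 and TNFRSF1B. For these 4 a difference of that size could not be told from none or, in the case of TLR4, from a small one. The 3 ALI and 3 SMC values did not overlap for 12 genes with a higher ALI mean (15.4%, against 11% of all genes) and for 3 with a lower one (3.85%, against 10.9%), where 21.9% of all genes did not overlap in either direction.

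**Figure D2:**
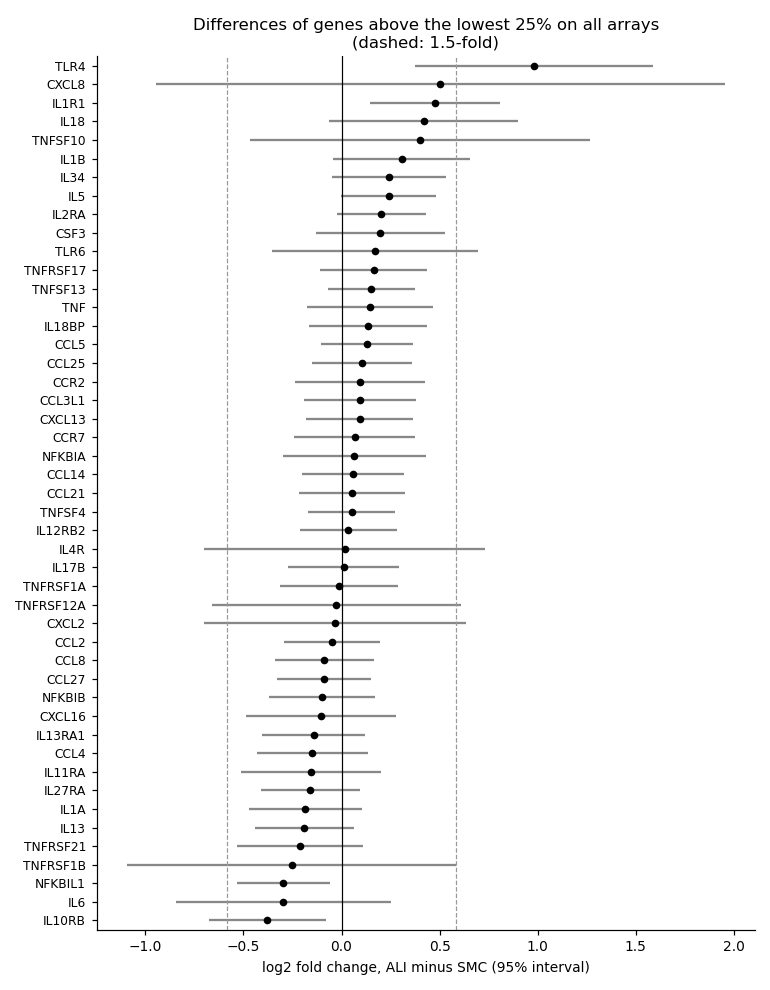
Log2 fold change (ALI minus SMC, points) with its 95% interval from limma (lines) for the 47 genes above the lowest 25% on all 6 arrays. Dashed lines mark 1.5-fold, which the point of TLR4 alone passes at 0.98, and the interval of CXCL8 is the widest, from -0.95 to 1.96.

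TLR4, the receptor of bacterial lipopolysaccharide, had the largest difference of the set. On the brightest of its probe sets it measured 7.50, 8.19 and 7.60 in ALI cells and 6.46, 6.55 and 7.35 in SMC cells, in the order of passages P109, P111 and P113. All ALI values lay above all SMC values, though SMC cells of passage P113 came within 0.25 of the ALI cells of that passage. The differences within passages P109 and P111 were 1.04 and 1.64. The log2 difference was 0.98 (standard error 0.26, 95% interval 0.37 to 1.59), with an adjusted p of 0.128 from limma without and 0.0468 with the passage as a block. Leaving out SMC replicate 3, the array with the high SMC value, gave 1.26 with an adjusted p of 0.0398 in the fit without the block, and leaving out any other array gave 0.77 to 1.11 with an adjusted p of 0.139 to 0.409.

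The other 4 probe sets annotated to TLR4 gave smaller differences. The fourth in brightness, above the lowest 25% on 2 arrays, measured 4.47, 4.76 and 4.63 in ALI and 3.78, 3.88 and 4.48 in SMC cells, the same ordering of the passages at a dim signal (log2 difference 0.57, adjusted p = 0.206 from limma, 0.0735 with the block). Its groups overlapped narrowly, with the lowest ALI value at 4.47 and the highest SMC value at 4.48. The second and the third in brightness, both above the lowest 25% on all arrays, had log2 differences of 0.21 and 0.18 (adjusted p = 0.685 and 0.596), and their ALI and SMC values overlapped. The dimmest, in the lowest 25% throughout, had -0.09 (adjusted p = 0.756). With the block 1 of the 5 probe sets was called, and averaging all 5 gave a log2 difference of 0.37 (adjusted p = 0.331).

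**Figure D3:**
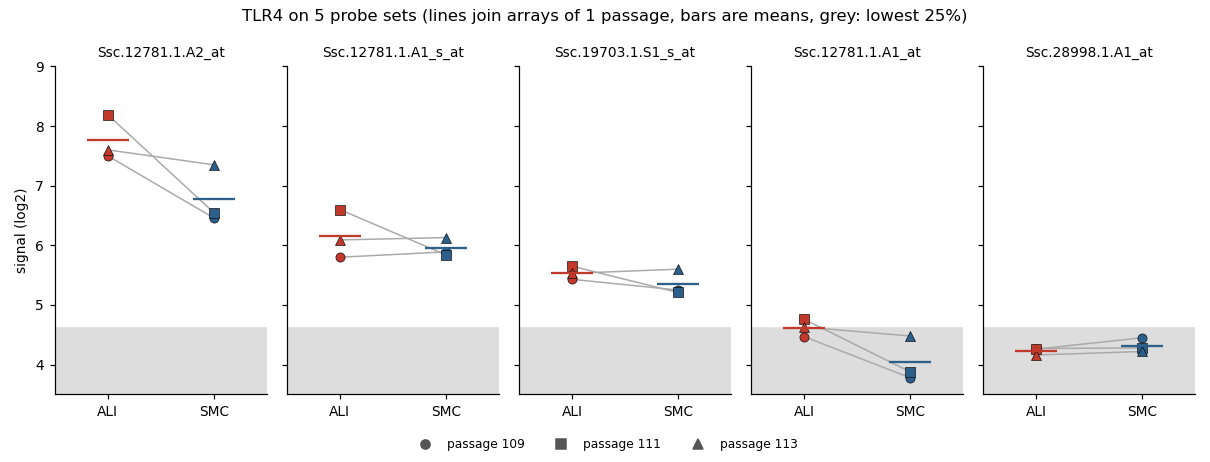
Log2 signal of the 5 TLR4 probe sets in ALI (left, red) and SMC cells (right, blue), 1 symbol per passage, with lines joining arrays of a passage, bars for the means of 3 arrays and grey for the lowest 25%. ALI values lie above SMC values in every passage on the first probe set (differences of 1.04, 1.64 and 0.25) and on the fourth. The order differs between passages on the second and the third, and on the fifth ALI lies below SMC in every passage (-0.20, -0.01 and -0.07).

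Around TLR4, the partners of the lipopolysaccharide receptor complex did not pass the test. LY96 (MD-2), which binds lipopolysaccharide on TLR4, measured 9.23, 9.21 and 9.53 in ALI and 8.71, 8.98 and 9.49 in SMC cells (adjusted p = 0.6 from limma). CD14, which hands lipopolysaccharide to the complex, measured 5.66, 5.54 and 5.31 in ALI and 5.48, 5.56 and 5.32 in SMC cells. MYD88, the adaptor of most Toll-like receptors and of the IL-1 receptor, stood at 6.04, 5.97 and 6.04 in ALI cells against 6.41, 6.28 and 6.88 in SMC cells, values that do not overlap (log2 difference -0.51, standard error 0.16, adjusted p = 0.183 and 0.0705 with the block). SIGIRR, a dampening receptor of this family, was at 6.98, 7.11 and 7.06 in ALI against 7.56, 7.49 and 7.28 in SMC cells (log2 difference -0.40, adjusted p = 0.143 and 0.0947 with the block). As means of their probe sets, MYD88 and SIGIRR had smaller differences of -0.28 and -0.20 (adjusted p = 0.321 and 0.444 from limma). TLR6, a partner of TLR2, overlapped between the cultures, with 5.94, 5.73 and 6.20 in ALI and 5.56, 5.48 and 6.32 in SMC cells. Of 21 measured adaptors, kinases and regulators of Toll-like receptor and NF-kB signaling, 0 were called by limma with or without the block, and 4 had an unadjusted p under 0.05 in either fit, where 16% of all genes did without and 21.2% with the block. The median log2 difference of this list was 0.01, as over all genes.

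Among the interleukin receptors, IL1R1, the signaling receptor of IL-1, had the largest difference above the lowest 25%. It measured 5.39, 5.80 and 5.52 in ALI cells and 5.30, 4.95 and 5.04 in SMC cells. The groups did not overlap, but at passage P109 they differed by only 0.09 (log2 difference 0.48, standard error 0.14, adjusted p = 0.173 from limma). Its second probe set, in the lowest 25%, gave 0.07. IL10RB, a chain shared by the receptors of IL-10 and IL-22, stood at 8.23, 7.80 and 8.07 in ALI cells and 8.40, 8.50 and 8.34 in SMC cells (log2 difference -0.38, standard error 0.13, adjusted p = 0.229). This was the most negative value of the set. IL2RA, the alpha chain of the IL-2 receptor, measured 5.29, 5.47 and 5.39 in ALI and 5.21, 5.18 and 5.16 in SMC cells, which did not overlap by a narrow margin (adjusted p = 0.398). IL27RA and IL11RA, receptor chains of IL-27 and IL-11 with means above 8, had log2 differences of -0.16 each and overlapping values. IL18R1, a chain of the IL-18 receptor, lay in the lowest 25% on 5 of 6 arrays, with 4.42, 4.88 and 4.43 in ALI and 4.19, 4.11 and 4.13 in SMC cells (adjusted p = 0.201), so its difference of 0.43 is no exact size.

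The interleukins themselves overlapped in most cases. IL1B, an NF-kB inducible form of IL-1, measured 7.51, 7.35 and 7.45 in ALI and 7.38, 6.81 and 7.20 in SMC cells (log2 difference 0.31, 95% interval -0.04 to 0.66, adjusted p = 0.408 from limma). IL18, an epithelial cytokine of the IL-1 family, measured 6.88, 7.44 and 7.23 in ALI and 7.20, 6.58 and 6.52 in SMC cells, so that the passages disagreed in direction (-0.32, 0.86 and 0.71). IL18BP, the secreted inhibitor of IL-18, was at 8.01, 8.30 and 7.90 in ALI and 7.82, 8.02 and 7.96 in SMC cells. IL6, an inducer of the acute-phase response, was below its SMC partner in the ALI array of every passage (-0.13, -0.47 and -0.29), at 6.87, 7.06 and 7.55 in ALI against 7.01, 7.53 and 7.84 in SMC cells. Its log2 difference of -0.30 had an adjusted p of 0.635, and 0.192 with the block.

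IL34, a ligand of the receptor of CSF1, had 5.92, 5.88 and 5.76 in ALI and 5.72, 5.38 and 5.73 in SMC cells, and IL5, an eosinophil factor, had 5.05, 5.01 and 4.93 in ALI and 4.78, 4.63 and 4.86 in SMC cells. Both sets of values did not overlap by a narrow margin, with log2 differences of 0.24 each (adjusted p = 0.433 and 0.349 from limma). IL13, a cytokine of type 2 responses, had 4.85, 5.01 and 5.14 in ALI and 5.21, 5.14 and 5.22 in SMC cells, which nearly touch (log2 difference -0.19, adjusted p = 0.479). IL1A, the second form of IL-1, and IL17B differed by -0.18 and 0.01 (adjusted p = 0.56 and 0.983).

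CXCL8 (interleukin 8), the neutrophil chemoattractant that epithelial cells release on stimulation, was the most variable gene of the set. Its signal was 6.66, 9.19 and 7.87 in ALI cells and 8.27, 7.48 and 6.46 in SMC cells of passages P109, P111 and P113. The difference between ALI and SMC cells was -1.61 at passage P109, 1.71 at passage P111 and 1.41 at passage P113, so the passages disagreed in direction. The range over the 6 arrays was 2.73 log2 units, and the log2 difference of 0.50 had a 95% interval from -0.95 to 1.96 (adjusted p = 0.773 from limma) and was -0.14 without ALI replicate 2. The other neutrophil chemoattractants varied less. CXCL2 measured 5.44, 6.19 and 6.23 in ALI and 6.20, 5.39 and 6.37 in SMC cells, with a log2 difference of -0.03. AMCF-II, a pig chemokine of the same kind that the naming rule did not take, measured 10.84, 10.64 and 10.34 in ALI and 10.82, 10.49 and 10.24 in SMC cells, with a log2 difference of 0.09 (adjusted p = 0.868).

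Of the other chemokines, CXCL16, a membrane-bound ligand of CXCR6, measured 9.09, 9.34 and 8.76 in ALI and 9.35, 9.18 and 8.97 in SMC cells (log2 difference -0.10, adjusted p = 0.832 from limma). CCL5, a T cell attractant, measured 5.60, 5.39 and 5.43 in ALI and 5.33, 5.36 and 5.34 in SMC cells, which did not overlap by a narrow margin (log2 difference 0.13, adjusted p = 0.63). CCL25, the gut-homing chemokine of the small intestine, stood at 4.76, 5.03 and 4.95 in ALI and 4.90, 4.76 and 4.77 in SMC cells. Its receptor CCR9 measured 5.39, 4.84 and 4.76 in ALI and 4.72, 4.32 and 4.53 in SMC cells, which did not overlap by a narrow margin. CCR9 had a log2 difference of 0.47 (adjusted p = 0.297, standard error 0.18, and 0.0688 with the block), at a signal near the lowest 25%. The 7 further chemokines above the lowest 25%, CCL2, CCL3L1, CCL4, CCL8, CCL14, CCL21 and CCL27, and the B cell attractant CXCL13, differed by -0.15 to 0.09. The leukocyte receptors CCR2 and CCR7 differed by 0.09 and 0.07. In total, 19 chemokines had log2 differences from -0.15 to 0.50 and 0 were called, none with an unadjusted p under 0.05 in limma.

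The TNF receptors included the highest signal of the set, and none of the 5 passed the test. TNFRSF21 (death receptor 6) measured 12.27, 11.90 and 11.95 in ALI and 12.35, 12.36 and 12.06 in SMC cells (log2 difference -0.21, adjusted p = 0.551 from limma). TNFRSF1A, the main TNF receptor of epithelial cells, measured 9.15, 9.23 and 9.15 in ALI and 9.38, 9.24 and 8.94 in SMC cells, with a log2 difference of -0.01 and a 95% interval from -0.31 to 0.29. TNFRSF12A, the receptor of TWEAK, had a log2 difference of -0.03 (adjusted p = 0.98). TNFRSF1B, the second TNF receptor, measured 8.18, 8.65 and 7.44 in ALI and 8.82, 8.60 and 7.62 in SMC cells (log2 difference -0.26, adjusted p = 0.804). Of the ligands, TNFSF4 (OX40 ligand) differed by 0.05, and TNF stood at 5.94, 6.09 and 5.58 in ALI and 5.73, 5.74 and 5.70 in SMC cells. TNFSF13 (APRIL), a B cell factor made by epithelia, measured 5.74, 5.84 and 5.70 in ALI and 5.64, 5.61 and 5.57 in SMC cells, which did not overlap (log2 difference 0.15, adjusted p = 0.535). TNFSF10 (TRAIL), a death ligand, was at 6.67, 7.11 and 6.72 in ALI and 5.42, 6.92 and 6.96 in SMC cells, where SMC cells of passage P109 stood alone (log2 difference 0.40, 95% interval -0.47 to 1.27). Without that array the difference was -0.11.

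The inhibitors of NF-kB had clear signals in both cultures. NFKBIA (IkB alpha), which NF-kB itself induces, measured 10.11, 10.38 and 10.59 in ALI and 10.05, 10.46 and 10.37 in SMC cells, with a log2 difference of 0.07 (95% interval -0.30 to 0.43, adjusted p = 0.899 from limma). NFKBIB (IkB beta) had 9.08, 9.27 and 9.31 in ALI and 9.45, 9.32 and 9.18 in SMC cells (log2 difference -0.10, adjusted p = 0.764). NFKBIL1, an IkB-like gene, had 7.67, 7.48 and 7.67 in ALI against 7.85, 7.91 and 7.95 in SMC cells. The values of NFKBIL1 did not overlap, with a log2 difference of -0.30 (adjusted p = 0.235, standard error 0.10, and 0.174 with the block). CSF3 (granulocyte colony-stimulating factor) had a log2 difference of 0.20 and CSF2 one of -0.09, neither past the test.

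The signals were also read by passage. The trend over passages with the lowest adjusted p was that of TNFRSF12A, whose signal at passages P109, P111 and P113 was 10.49, 10.02 and 9.70 in ALI cells and 10.65, 10.01 and 9.63 in SMC cells. Both cultures gave the same order, and its second probe set gave 10.58, 9.98 and 9.70 in ALI and 10.65, 9.92 and 9.46 in SMC cells. The change between passages P109 and P113 was -0.90 log2 units (adjusted p = 0.0999 from limma, with the culture in the fit). IL6 ran the other way by 0.76 (adjusted p = 0.127). IL4R, the receptor chain of IL-4 and IL-13, measured 7.79, 7.75 and 6.97 in ALI and 8.15, 7.23 and 7.08 in SMC cells (-0.95, adjusted p = 0.151), while its second probe set stayed between 7.18 and 7.45. TNFRSF1B had -0.97 (adjusted p = 0.257) and NFKBIA 0.40 (adjusted p = 0.295).

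These 5 genes were singled out after their values were seen. For the trend over passages, 0 of the 78 genes and 0 of 23999 probe sets were called by limma, and 10 of the 78 (12.8%, against 13.8% of all genes) had an unadjusted p under 0.05, 3 with a rising signal (7.73% of all genes) and 7 with a falling one (6.08%). Without ALI replicate 2, the trends of TNFRSF12A, IL6 and IL4R had an adjusted p of 0.0333, 0.0458 and 0.0491. Passage and the separate experiment in which each passage was grown cannot be told apart.

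**Figure D4:**
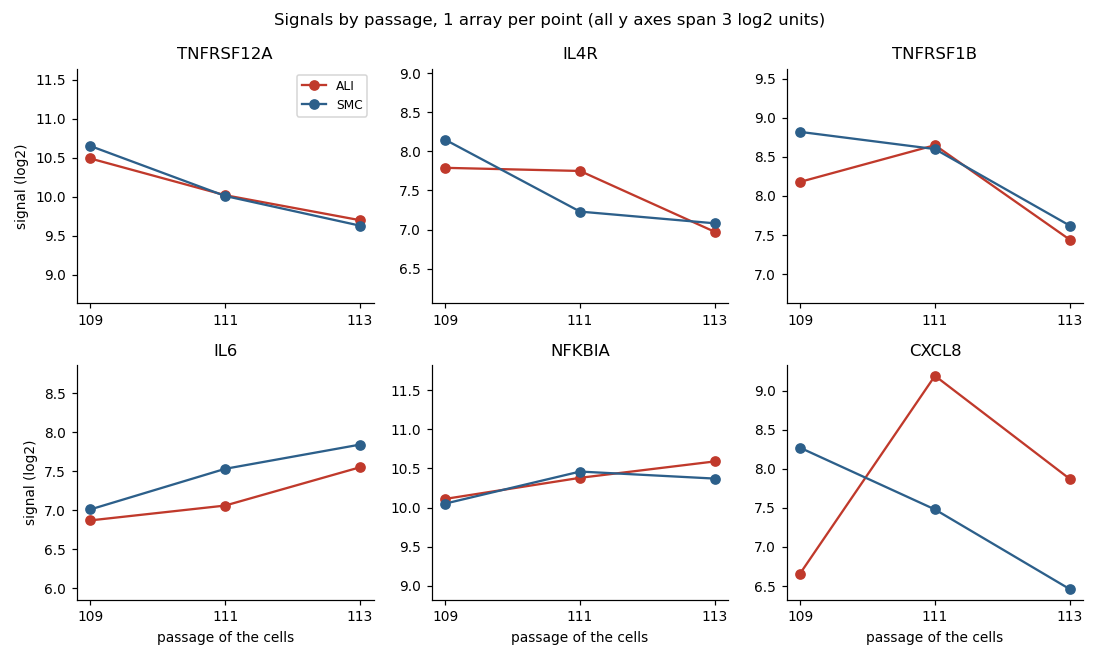
Log2 signal against passage (P109, P111 and P113) in ALI (red) and SMC cells (blue) for 6 genes, 1 array per point, with y axes that all span 3 log2 units. The lines of TNFRSF12A lie on each other and end at 9.70 in ALI and 9.63 in SMC cells, whereas those of CXCL8 cross.

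Of the cytokines and receptors that carry other names, 28 were measured and 0 were called without the block (9 at an unadjusted p under 0.05, where 16% of all genes were), and 2 were higher and 1 lower with it, where 2.25% and 3.75% of all genes were. IFNAR2, a chain of the type I interferon receptor, measured 8.41, 8.36 and 8.03 in ALI and 7.93, 7.86 and 7.41 in SMC cells (log2 difference 0.53, adjusted p = 0.184 from limma and 0.0241 with the block). As a mean of its probe sets IFNAR2 had a smaller difference of 0.35 (adjusted p = 0.417 from limma without the block). MIF, macrophage migration inhibitory factor, measured 12.59, 12.61 and 12.73 in ALI and 13.26, 13.03 and 13.14 in SMC cells (log2 difference -0.50, adjusted p = 0.0629 and 0.0391 with the block). FAS, the death receptor CD95, lay in the lowest 25% on all arrays at 3.83, 3.80 and 4.02 in ALI and 3.38, 3.28 and 3.51 in SMC cells (adjusted p = 0.0779 and 0.0307 with the block), so its difference of 0.49 is no exact size. The median log2 difference over these 28 was 0.07.

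Downstream of the receptors, 18 JAK-STAT genes were measured. Without the block 0 were called and 3 had an unadjusted p under 0.05, where 16% of all genes did. With it 2 were called higher (2.25% of all genes) and 5 had an unadjusted p under 0.05 (21.2%). PIAS1, an inhibitor of STAT proteins, measured 10.66, 11.14 and 10.98 in ALI and 10.07, 10.54 and 10.41 in SMC cells, a nearly constant difference of 0.57 to 0.59 within passages (adjusted p = 0.144 from limma and 0.0154 with the block). STAT2, which carries type I interferon signals, measured 7.19, 7.27 and 7.71 in ALI and 6.52, 6.94 and 7.10 in SMC cells (log2 difference 0.54, adjusted p = 0.241 and 0.0351 with the block). The median log2 difference of the list was 0.06. In a culture of 1 bulk RNA, fewer cells that express a gene and less RNA per cell cannot be told apart.

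Of 31 measured genes that NF-kB can induce, limma called 1 up and 1 down in ALI cells (1.02% and 1.51% of all genes), and 7 had an unadjusted p under 0.05 (16%). With the block 2 were higher and 2 lower (2.25% and 3.75%). In this list, C3, the central complement component that epithelia also secrete, measured 6.17, 6.42 and 7.43 in ALI cells and between 4.97 and 5.13 in SMC cells. Every ALI value was more than 1 log2 unit above every SMC value, a log2 difference of 1.64 (adjusted p = 0.0303, standard error 0.28 from limma). NAMPT, an enzyme of NAD salvage that is also secreted as a cytokine, measured 8.33, 8.07 and 7.91 in ALI against 8.97, 8.81 and 8.93 in SMC cells (log2 difference -0.80, standard error 0.13, adjusted p = 0.0235). The calls did not hold without ALI replicate 2 or any 1 of the SMC arrays, with an adjusted p of 0.054 to 0.128 for C3 and 0.0613 to 0.0956 for NAMPT.

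IER3, an early response gene, measured 9.35, 8.61 and 8.25 in ALI and 10.73, 9.39 and 9.02 in SMC cells, which overlap between passages but differ by -1.38, -0.78 and -0.77 within them (adjusted p = 0.358 from limma without the block and 0.00801 with it). VCAM1, an adhesion molecule for leukocytes, was above the lowest 25% on 1 array, at 4.82, 4.55 and 4.44 in ALI and 4.15, 4.16 and 3.90 in SMC cells (adjusted p = 0.103 and 0.0302 with the block). Of the genes with an unadjusted p under 0.05, 4 were not called in either fit. IRF1, a transcription factor of interferon responses, measured 7.35, 7.72 and 7.53 in ALI and 8.43, 8.09 and 7.73 in SMC cells, which nearly touch (log2 difference -0.55, adjusted p = 0.217). CFB, complement factor B, measured 6.93, 7.06 and 7.29 in ALI and 7.52, 7.29 and 7.62 in SMC cells, which nearly touch (adjusted p = 0.245). Its log2 difference was -0.38, and -0.21 as a mean of its probe sets. GADD45A, a stress response gene, and MMP9, a matrix protease, differed by -0.40 and 0.32 (adjusted p = 0.32 and 0.197). The median log2 difference of the list was -0.04.

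**Figure D5:**
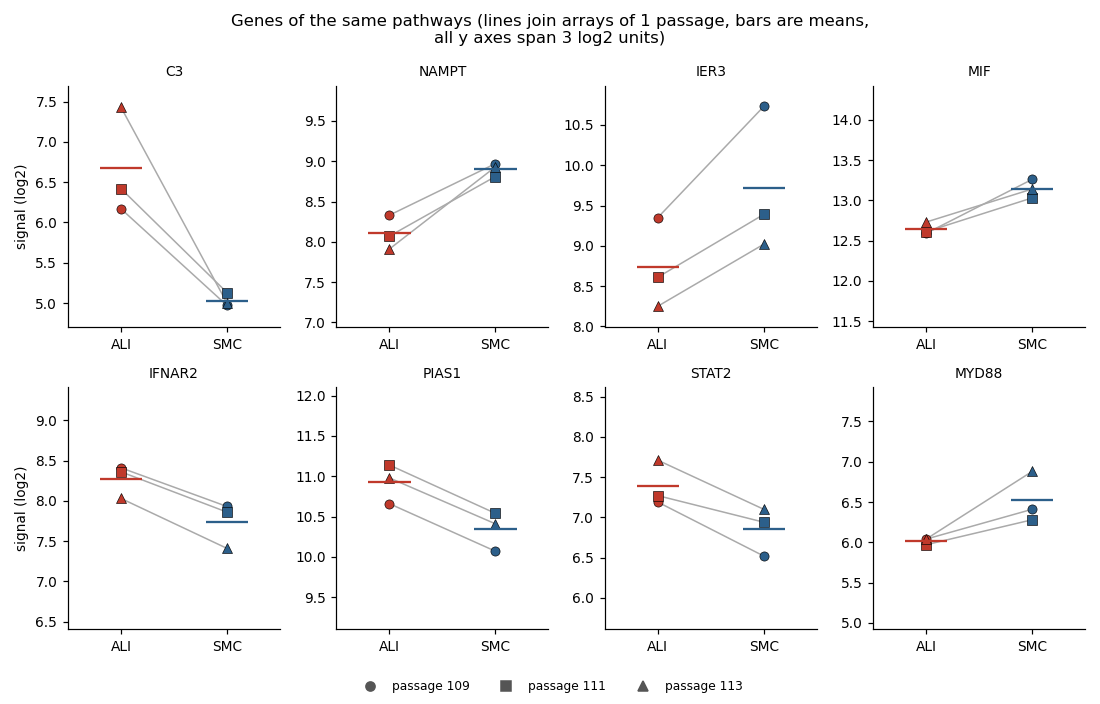
Log2 signal of 8 genes of the same pathways in ALI (left, red) and SMC cells (right, blue), 1 symbol per passage, with lines joining arrays of a passage and bars for the means of 3 arrays. C3 lies higher (6.17 to 7.43, against 4.97 to 5.13) and NAMPT lower in ALI cells, and the lines of PIAS1 run parallel at differences of 0.57 to 0.59.

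Markers of other cell types were read beside these genes, and their part in the results was not tested. Over all genes 1.02% were called higher and 1.51% lower by limma, and 16% had an unadjusted p under 0.05. In the immune list, 1 of 21 genes was called, AIF1, a macrophage protein, at 10.61, 10.53 and 10.38 in ALI and 11.16, 11.18 and 11.09 in SMC cells (log2 difference -0.64, adjusted p = 0.0248 from limma). It was lost without any 1 array other than ALI replicate 3 (adjusted p from 0.0551 to 0.123) and with the methods' t-test (0.162). Of 7 endothelial markers, PECAM1 was called at a log2 difference of -0.50 (adjusted p = 0.0448), which was lost without any 1 of the 6 arrays (0.0792 to 0.149), and with quantile normalization (0.0546), averaged probe sets (0.0667), an intensity trend (0.0752) and the t-test (0.15). PECAM1 and VWF lay above the lowest 25% on all 6 arrays, TIE1 on 3, TEK on 1 and CDH5, ENG and KDR on 0. The mean signal of the endothelial list was 4.61 to 4.99 on the ALI arrays and 4.72 to 4.92 on the SMC arrays. Of 7 markers of fibroblasts and smooth muscle, 0 were called and 0 had an unadjusted p under 0.05. The largest differences were those of PDGFRB and COL1A2, at -0.49 and 0.23. As a mean of its probe sets PDGFRB had -0.22. COL1A2, PDGFRB, DES, THY1 and ACTA2 lay above the lowest 25% on all 6 arrays, and DCN and LUM on 0.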

How the data were processed

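The authors hybridized RNA of 3 ALI and 3 SMC cultures to GeneChip Porcine Genome Arrays and, per their methods, normalized by GC-RMA. GCOS 1.1.1 is named in the submitters' processing notes. The deposited table holds log2 values, 1 column per array, and does not name its normalization. The values were used without further scaling. After removal of 124 control probe sets, 23999 were fitted with limma 3.58.1 in R 4.3.3 (lmFit, eBayes), culture type as the only factor. Calls were made at an adjusted p under 0.05 over all probe sets. Of these, 10069 carried 1 gene symbol, 198 several and 13732 none in the platform annotation. The probe set of highest mean stood for a gene. The 1 chemokine left out of the set is not reported here. All 78 genes had the same symbol under their gene ID in the RefSeq table of the pig, and 2 probe sets naming IL3RA with another gene were not used.

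By the labels, 1 ALI and 1 SMC array share each passage. Deviations from the culture means, taken over probe sets, correlated within a passage at 0.34, 0.14 and 0.451. Between passages, ALI of P111 and SMC of P109 correlated at 0.219, above the 0.14 within P111. The other pairs between passages had -0.424 to -0.0689. The deviations of the arrays of a culture cancel out. A positive correlation within a passage therefore forces a negative one between passages. Passage was run as a block beside the main fit. Its adjusted p is given where it changes a call, and for some of the other genes. The genes and lists were chosen with earlier results of these data known. Described in full are genes called with or without the block, those whose groups do not overlap at a signal above the lowest 25% in a group, the 10 highest signals, and called genes of each list, or its 2 largest changes. A few further genes were described after their values were seen. The trend over passages was added after seeing the data. Fits were tested on simulated data. The number of arrays limits the precision.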

Additional observations from a re-analysis of the deposited data

How the results depend on the processing

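Quantile normalization, filters on a mean signal above 4 or 6, averaging of all probe sets per gene, an intensity trend and the methods' t-test each called 0 of the 78 genes. The replicate block called 1 higher and 0 lower, and leaving out single arrays gave 0 to 1 higher. The replicate block gave 2 calls among JAK-STAT genes, 3 among cytokines and receptors named otherwise and 4 among NF-kB inducible products, against 0, 0 and 2 without it, and changed no other call among the genes described. The intensity trend gave 2 calls among cytokines and receptors named otherwise, and leaving out 1 array 0 to 1. Calls among NF-kB inducible products were 1 with a mean above 6, 0 with the t-test and 0 to 2 without single arrays. For the trend over passages, leaving out 1 array gave 0 to 3 called genes of the 78. The number above the lowest 25% on all arrays was 47 (47 to 48 without single arrays), and 18 lay above the median of each array. Among the genes described with values, the following turned in direction under some setting and were called under none. TNFRSF12A had log2 differences of 0.008 after quantile normalization, 0.027 as a mean of probe sets and -0.26 to 0.25 without single arrays. TNFRSF1A had 0.019 after quantile normalization and -0.137 to 0.085 without single arrays. IL17B had -0.012 as a mean of probe sets and -0.096 to 0.093 without single arrays. Without single arrays NFKBIA ran from -0.054 to 0.192, CXCL16 from -0.242 to 0.048, TNFRSF1B from -0.619 to 0.069, CXCL8 from -0.138 to 1.128, CXCL2 from -0.332 to 0.225, TNFSF10 from -0.109 to 0.663, IL4R from -0.187 to 0.345, CSF2 from -0.166 to 0.031, CCR7 from -0.068 to 0.143, CD14 from -0.03 to 0.148 and AMCF-II from -0.047 to 0.244. The cause was not tested. With 3 arrays a culture, an exact permutation of 1 gene cannot reach a p below 0.1.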
